A study of Mus musculus with 8 samples.

Results

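This account describes the messenger RNAs of 39 splicing factor genes in mouse late morulae: 20 heterogeneous nuclear ribonucleoprotein (hnRNP) genes, 10 serine/arginine-rich (SR) protein genes, the 4 poly(C)-binding protein (PCBP) genes, the 3 polypyrimidine tract-binding protein (PTBP) genes and both transformer-2 (TRA2) genes. They were taken by symbol (Hnrnp, Srsf followed by a number, Pcbp1 to Pcbp4, Ptbp1 to Ptbp3, Tra2a and Tra2b) from the 12565 genes whose normalized abundance averaged at least 10 over the 8 libraries, out of 19058 genes in the table. Of 42 symbols that matched, 3 fell below that mean: Srsf12 averaged 0.30, and the pseudogenes Hnrnpa1l2-ps and Hnrnpa1l2-ps2 averaged 0.297 and 0.475. The lowest of the 39 above it, Ptbp2, averaged 36.0. The families were chosen by the measured change of Hnrnpc and Pcbp4, which are lower in the double knockdown than in the control, so the values of that contrast are given as a description and carry no p-value.

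Zygotes were injected with small interfering RNA (siRNA), and polyadenylated RNA was sequenced from whole embryos 78 h after fertilization. The double knockdown received siRNA against both Rbbp4 and Rbbp7, the Rbbp4 knockdown siRNA against Rbbp4 alone, the Rbbp7 knockdown siRNA against Rbbp7 alone, and the control a non-specific siRNA, with 2 libraries in each of the 4 groups. In the results, values with Rbbp4 siRNA or with Rbbp7 siRNA are those of the single knockdowns. The proteins RBBP4 and RBBP7 are close relatives that bind histones within several chromatin complexes, and the title of the series names their overlapping functions in proliferation and histone deposition. The sources used here do not give the mouse strain, the sex or the number of embryos per library. The sample labels name no mutant genotype, and each knockdown lowers a transcript without deleting the gene.

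The hnRNP proteins coat nascent transcripts and often repress the use of nearby splice sites. The SR proteins bind exonic enhancers and usually favour inclusion of an exon, and the TRA2 proteins act beside them. The PCBP proteins bind C-rich and the PTBP proteins pyrimidine-rich RNA, and both also act on stability and translation in the cytoplasm. Most of these genes are used by every cell, while Ptbp2 and Pcbp3 are best known from neural tissue.

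Values are normalized abundances from the deposited table. The knockdowns were visible in the targets. Rbbp4 averaged 390.6 ± 60.3 in the double knockdown, 372.5 ± 42.2 with Rbbp4 siRNA and 4418 ± 68.9 with Rbbp7 siRNA, against 5005 ± 417 in the control (SD, n = 2 each). Rbbp7 averaged 296.5 ± 43.6 in the double knockdown, 6496 ± 284 with Rbbp4 siRNA and 295.5 ± 3.17 with Rbbp7 siRNA, against 7802 ± 844 in the control (SD, n = 2 each). Column totals were 11334107 to 12011829, and the 39 genes held 1.15% to 1.43% of a library's total. The highest share was in Rbbp7 knockdown replicate 2 and the lowest in control replicate 1. All 16 late morula markers, among them Pou5f1, Nanog, Cdx2 and Gata3, passed the minimum mean. Summed markers of oocyte, blood and sperm reached at most 215, 26.8 and 11.2 in any library, against at least 55774 for the summed morula markers. Of 15 cumulus and granulosa markers 8 were in the table, and they summed to between 3167 and 4156. Most of that sum came from Nr5a2, which preimplantation embryos express themselves. Of the 4 tested, 3 had a positive and 1 a negative change in the double knockdown against the control, and 0 were called. The largest was that of Foxl2, at 101 and 74.4 in the double knockdown against 29.3 and 12.0 in the control. Control replicate 1 stood apart: 6.21% of its signal was mitochondrial (4.26% to 5.53% elsewhere) and 3937 of its genes were listed at 0 (2644 to 3237 elsewhere).

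Because Hnrnpc is the abundant member of the pair that chose the families, its promoter is shown with that of Hnrnpa1, the hnRNP gene with the highest level per kb. Each line gives the 250 bases before the RefSeq start, 5′ to 3′ on the gene's strand, in GRCm38.p6. Capitals mark CCAAT or its reverse complement ATTGG, the core of the box bound by the trimeric factor NF-Y. The window of Hnrnpc is chr14:52104022-52104271 on the minus strand, and that of Hnrnpa1 is chr15:103240147-103240396 on the plus strand.
Hnrnpc: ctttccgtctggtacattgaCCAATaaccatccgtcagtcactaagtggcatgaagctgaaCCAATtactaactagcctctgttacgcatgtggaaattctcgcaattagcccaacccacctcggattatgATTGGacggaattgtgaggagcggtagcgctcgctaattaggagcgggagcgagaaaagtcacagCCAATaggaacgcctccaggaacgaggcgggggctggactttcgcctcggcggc
Hnrnpa1: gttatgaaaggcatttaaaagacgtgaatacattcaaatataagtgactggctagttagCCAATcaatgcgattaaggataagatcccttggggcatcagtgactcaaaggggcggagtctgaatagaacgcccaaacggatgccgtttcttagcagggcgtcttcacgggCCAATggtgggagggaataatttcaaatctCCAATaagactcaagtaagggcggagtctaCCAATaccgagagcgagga
Both windows held 4 matches. In Hnrnpc they began 230, 189, 119 and 54 bases before the start, the one at 119 as ATTGG, and in Hnrnpa1 191, 79, 49 and 19 bases before it. RefSeq windows were found for 34 of the 39 genes, with none for Pcbp4 or Ptbp3. Of these 34, 4 genes (Hnrnpc, Hnrnpa1, Hnrnpl and Hnrnpr) had at least 4 matches, as did 0.977% of 27025 genes with a window (264 genes). At least 1 match was present in 18 of the 34 windows (52.9%), against 37.5% of all windows of the same length. The GC box core GGGCGG, searched on both strands, was found in 79.4% of the 34 windows and in 35.4% of all. The ETS core CCGGAAG was found in 23.5% and in 7.83%. The TATA box core TATAAA was found in 8.82% of the 34 windows and in 14.3% of all, and the cell cycle element core TTTGAA in 14.7% and in 18.3%. The median window of these families held 25 CpG dinucleotides, against 6 over all genes, while Hnrnpc held 17. The 27025 genes were not limited to those that passed the minimum mean, as the genes of these families were. No set of like abundance or CpG content was compared. Whether these motif shares differ from those of other expressed genes was therefore not tested. Beside these windows, the change from the control in the double knockdown is given on the log2(value + 1) scale. It was −1.37 ± 0.17 (SE) for Hnrnpc and 0.03 ± 0.12 for Hnrnpa1. That contrast chose Hnrnpc, and a link between the matches and the changes was not tested.

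Hnrnpc and Pcbp4 followed the same order in the 8 libraries. Hnrnpc (ENSMUSG00000060373, GRCm38 chr14:52073377-52104028, minus strand) encodes the hnRNP C proteins, which bind uridine tracts and keep cryptic exons out of transcripts. It measured 381 and 285 in the double knockdown, 756 and 671 in the Rbbp4 knockdown and 683 and 625 in the Rbbp7 knockdown, against 826 and 884 in the control. Each double knockdown library lay below all 4 single knockdown libraries, and each of those lay below both control libraries. Group means were 38.9% of the control in the double knockdown, 83.4% with Rbbp4 siRNA and 76.5% with Rbbp7 siRNA. In these whole-embryo libraries, fewer cells of a type and less RNA per cell cannot be told apart. The 16 late morula markers summed to 58139 and 55774 in the double knockdown, against 64857 and 73590 in the control. In the single knockdowns the sums were 65510 to 67768. These sums join markers that moved in opposite directions. In the Rbbp7 knockdown 7 of the 16 had positive and 9 negative log2 changes. There Nanog measured 9093 and 10156, against 6698 and 6322 in the control, and Krt18 measured 1174 and 1421, against 3300 and 4116. In the double knockdown 3 were positive and 13 negative. The part of this in the values of Hnrnpc and Pcbp4 was not tested.

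Pcbp4 (ENSMUSG00000023495, GRCm38 chr9:106453291-106464012, plus strand), known in mammals as a p53-induced RNA-binding protein, was less abundant, at 13.0 per kb of exon over the 8 libraries against 148 for Hnrnpc. It measured 12.2 and 15.2 in the double knockdown, 49.6 and 69.2 in the Rbbp4 knockdown and 52.0 and 41.7 in the Rbbp7 knockdown, against 117.5 and 87.7 in the control. The order was the same as for Hnrnpc, and in both genes only the single knockdowns overlapped each other. Group means were 13.3% of the control in the double knockdown, 57.9% with Rbbp4 siRNA and 45.6% with Rbbp7 siRNA. The other 37 genes did not show this order, and the reverse order (double knockdown above all single knockdowns, and these above the control) occurred in 0 of 39. Over all tested genes the shares were 1.19% and 1.35%. The order includes the contrast that chose Hnrnpc and Pcbp4, so nothing is read from their count.

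**Figure D1:**
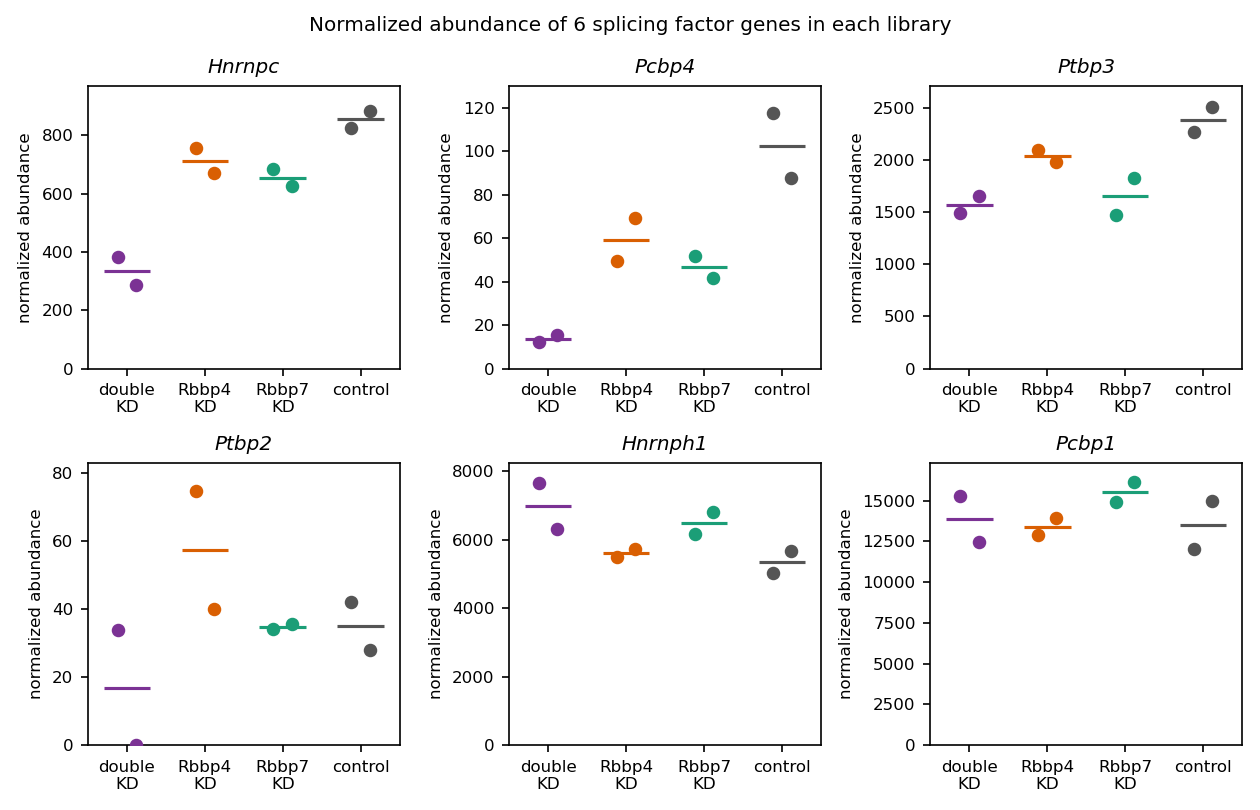
Normalized abundance (linear axis from 0) of Hnrnpc, Pcbp4, Ptbp3, Ptbp2, Hnrnph1 and Pcbp1 in each library, by group; points are libraries and lines are means of 2. For Hnrnpc and Pcbp4 the double knockdown lies below both single knockdowns, which lie below the control and overlap each other. Ptbp2 is at 0 in double knockdown replicate 2, and the groups of Pcbp1 overlap or lie close together.

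On the log2(value + 1) scale, Hnrnpc differed from the control by −1.37 ± 0.17 (SE) in the double knockdown and Pcbp4 by −2.81 ± 0.39. These 2 of the 39 genes were among the 1.15% of all tested genes called in that contrast (0.501% lower and 0.645% higher); the contrast chose them, so nothing is read from the count. The other 37 genes were not called. Neither gene was called without control replicate 1, without Rbbp4 knockdown replicate 2 or with only the 2 groups in the fit, where 38, 18 and 2 of all tested genes were called, against 144 in the fit of all libraries. Pcbp4 was also not called without either double knockdown library or without Rbbp4 knockdown replicate 1. Over the libraries left out in turn, the log2 change ran from −1.58 to −1.16 for Hnrnpc and from −3.02 to −2.60 for Pcbp4. Against the single knockdowns, which reuse the double knockdown libraries, Hnrnpc differed by −1.11 ± 0.17 from the Rbbp4 knockdown and by −0.99 ± 0.17 from the Rbbp7 knockdown. Pcbp4 differed by −2.03 ± 0.39 and by −1.70 ± 0.39. In the single knockdowns against the control, which reuse the control libraries, Hnrnpc differed by −0.26 ± 0.17 with Rbbp4 siRNA and by −0.39 ± 0.17 with Rbbp7 siRNA, and Pcbp4 by −0.78 ± 0.39 and −1.11 ± 0.39. None of these passed the test. The difference between the single knockdowns uses no library of the contrast that chose the genes. Its errors, intervals and p-values do, because the spread was fitted over all 8 libraries. Between the single knockdowns Hnrnpc differed by −0.12 ± 0.17, with a 95% interval of −0.51 to 0.26 (limma adjusted p = 0.884). Pcbp4 differed by −0.33 ± 0.39, with an interval of −1.20 to 0.55 (limma adjusted p = 0.868). Leaving out 1 library moved the difference between −0.21 and −0.04 for Hnrnpc and between −0.56 and −0.09 for Pcbp4, with the value nearest 0 without Rbbp4 knockdown replicate 1 for Hnrnpc and without Rbbp4 knockdown replicate 2 for Pcbp4.

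Across the families, the single knockdowns gave no calls. In the Rbbp4 knockdown against the control 0 of 39 genes passed in limma (smallest adjusted p = 0.850; 1 gene at an unadjusted p below 0.05, as were 5.86% of all tested genes), where 0.0239% of all tested genes did. In the Rbbp7 knockdown against the control 0 of 39 passed (smallest limma adjusted p = 0.252; 4 genes unadjusted, and 9.55% of all), where again 0.0239% of all genes did. In the Rbbp7 knockdown against the Rbbp4 knockdown 0 of 39 passed (smallest limma adjusted p = 0.503; 2 genes unadjusted, and 9.30% of all), where 0.0796% of all genes did. The double knockdown gave 0 of 39 against the Rbbp4 knockdown, with 6 genes unadjusted (9.57% of all genes) and 0.0159% of all genes called. It gave 0 of 39 against the Rbbp7 knockdown, with 2 genes unadjusted (15.0% of all genes) and 0.358% of all genes called. These 39 genes were more abundant at the median than all tested genes (518 against 61.9 per kb of exon). The fit lets the variance follow abundance, and no set of genes of like abundance was compared. At the median the 39 were also measured more tightly than all tested genes (standard error 0.143 against 0.238 on the log2 scale). Some were not, with errors of 0.39 for Pcbp3 and Pcbp4, 1.30 for Ptbp2, 0.26 for Hnrnpu and 0.25 for Hnrnpul1. The 95% interval of the change lay within 2-fold in either direction for 35 of 39 genes in each single knockdown against the control, against 63.5% of all tested genes with Rbbp4 siRNA and 61.4% with Rbbp7 siRNA. It lay within 1.5-fold for 30 genes with Rbbp4 siRNA (34.7% of all tested genes) and for 26 with Rbbp7 siRNA (31.4%).

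**Figure D2:**
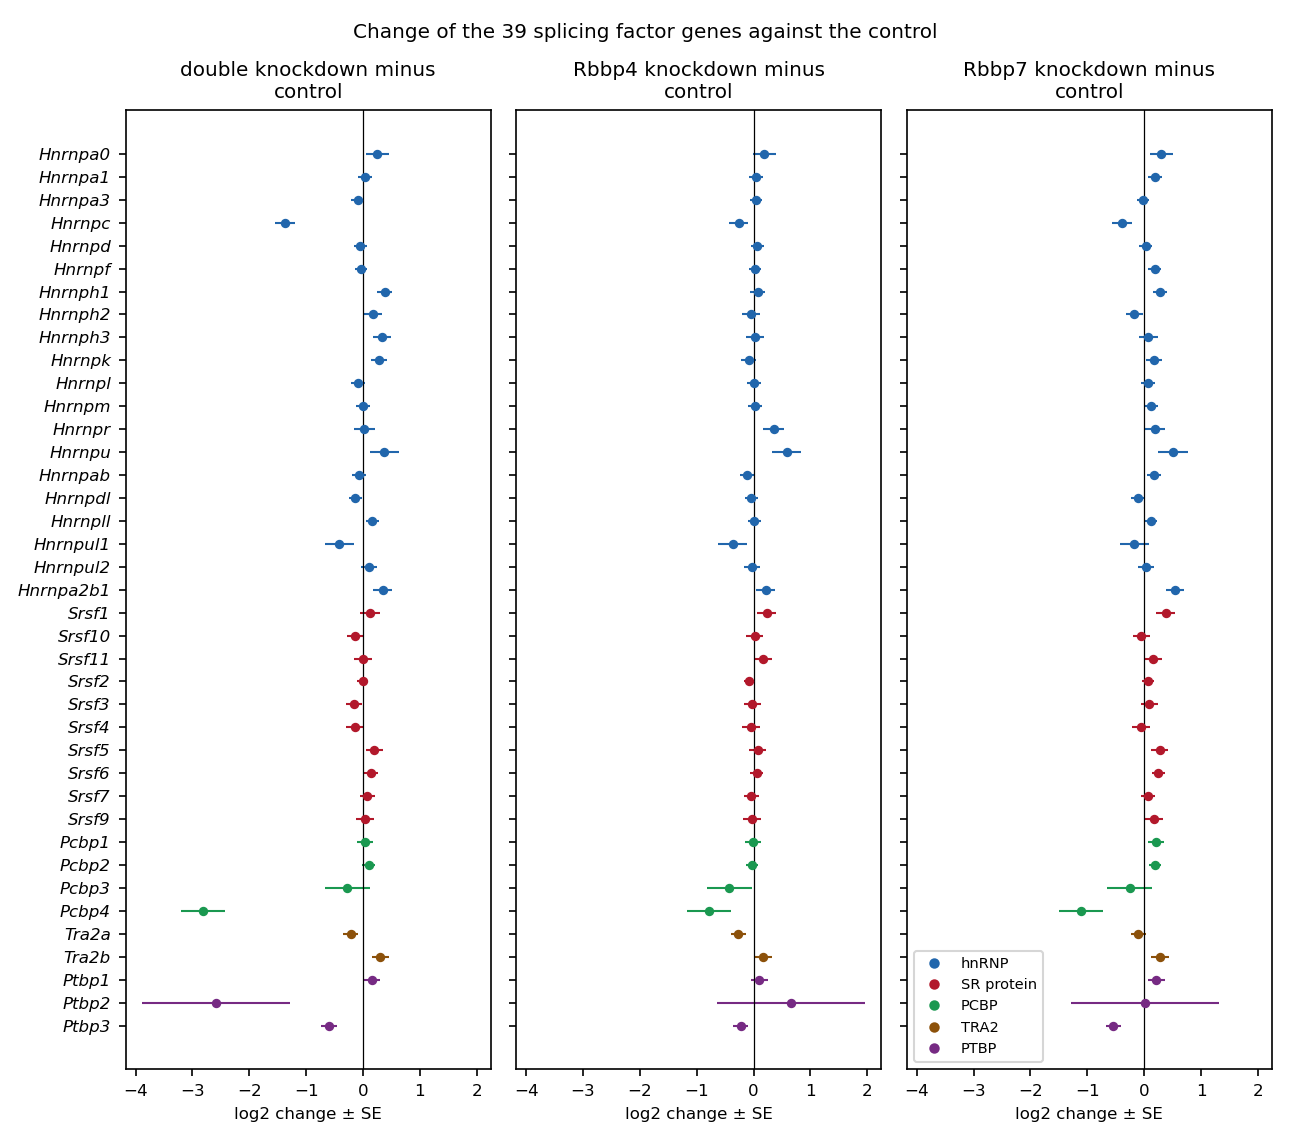
Log2 change ± SE (limma, on log2(value + 1)) of the 39 genes in the double knockdown, the Rbbp4 knockdown and the Rbbp7 knockdown, each against the same 2 control libraries, coloured by family. Hnrnpc and Pcbp4 lie left of 0 in all 3 panels, Ptbp2 has the widest error, and most other genes lie within 0.5 of 0.

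Among the hnRNP genes other than Hnrnpc, the largest positive changes were in Hnrnph1, Hnrnpu, Hnrnpa2b1 and Hnrnpr. Hnrnph1, which binds G-rich elements near splice sites, measured 7654 and 6296 in the double knockdown, 5482 and 5716 in the Rbbp4 knockdown and 6162 and 6812 in the Rbbp7 knockdown, against 5032 and 5656 in the control. The double knockdown and the Rbbp7 knockdown did not overlap the control, and the Rbbp4 knockdown did. Its log2 change was 0.38 ± 0.13 in the double knockdown, 0.07 ± 0.13 with Rbbp4 siRNA (limma adjusted p = 0.98) and 0.28 ± 0.13 with Rbbp7 siRNA (limma adjusted p = 0.530).

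Hnrnpa2b1, which binds RNA in the nucleus and in transport granules, measured 5246 and 5752 in the double knockdown, 5300 and 4732 in the Rbbp4 knockdown and 6178 and 6449 in the Rbbp7 knockdown, against 3614 and 5182 in the control. The Rbbp7 knockdown libraries were the highest 2, and control replicate 1 was the lowest of the 8. The log2 change was 0.34 ± 0.16 in the double knockdown, 0.21 ± 0.16 with Rbbp4 siRNA (limma adjusted p = 0.901) and 0.54 ± 0.16 with Rbbp7 siRNA (limma adjusted p = 0.316). Without control replicate 1 the last value was 0.28 and that of the double knockdown 0.08.

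Hnrnpu, a nuclear scaffold protein that also binds pre-mRNA, measured 2135 and 2156 in the double knockdown, 3186 and 1936 in the Rbbp4 knockdown and 2055 and 2702 in the Rbbp7 knockdown, against 1353 and 2031 in the control. Control replicate 1 was again the lowest library. The log2 change was 0.37 ± 0.26 in the double knockdown, 0.58 ± 0.26 with Rbbp4 siRNA (limma adjusted p = 0.850) and 0.51 ± 0.26 with Rbbp7 siRNA (limma adjusted p = 0.575). Without control replicate 1 these values were 0.08, 0.29 and 0.21, and the Rbbp4 knockdown value was 0.22 without its replicate 1, the highest library. Hnrnpr measured 1106 and 864 in the double knockdown, 1200 and 1253 in the Rbbp4 knockdown and 1184 and 1015 in the Rbbp7 knockdown, against 830 and 1115 in the control. Its change was 0.35 ± 0.18 in the Rbbp4 knockdown (limma adjusted p = 0.853), and 0.14 without control replicate 1.

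Hnrnpul1, a relative of Hnrnpu with roles in the DNA damage response, had negative changes in each knockdown. It measured 631 and 378 in the double knockdown, 437 and 590 in the Rbbp4 knockdown and 511 and 659 in the Rbbp7 knockdown, against 647 and 660 in the control. Its change in the Rbbp4 knockdown was −0.36 ± 0.25 (limma adjusted p = 0.892), or −0.15 without Rbbp4 knockdown replicate 1 and −0.58 without replicate 2, and the replicates of each knockdown lay further apart than those of the control. Hnrnpab measured 11999 and 9876 in the double knockdown, 10114 and 10993 in the Rbbp4 knockdown and 12365 and 13487 in the Rbbp7 knockdown, against 11347 and 11539 in the control. The Rbbp4 knockdown lay below and the Rbbp7 knockdown above the control, and the Rbbp7 knockdown exceeded the Rbbp4 knockdown by 0.29 ± 0.12 (limma adjusted p = 0.503). Hnrnpa1, the abundant relative of Hnrnpa2b1, measured 12813 and 12944 in the double knockdown, 12155 and 13799 in the Rbbp4 knockdown and 13198 and 15804 in the Rbbp7 knockdown, against 12060 and 13206 in the control, with overlap in every comparison against the control.

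The 10 SR protein genes varied little. Their log2 changes ran from −0.16 to 0.20 in the double knockdown, from −0.07 to 0.23 in the Rbbp4 knockdown and from −0.06 to 0.38 in the Rbbp7 knockdown, and none passed in any of the 6 comparisons. The highest of these was Srsf1, the prototype SR protein, in the Rbbp7 knockdown. It measured 3079 and 2298 in the double knockdown, 2580 and 3186 in the Rbbp4 knockdown and 3131 and 3237 in the Rbbp7 knockdown, against 2202 and 2722 in the control, a change of 0.38 ± 0.17 with Rbbp7 siRNA (limma adjusted p = 0.530), or 0.23 without control replicate 1. Srsf2, the SR gene with the highest value, measured 7034 and 6348 in the double knockdown, 6358 and 6400 in the Rbbp4 knockdown and 7098 and 6983 in the Rbbp7 knockdown, against 6863 and 6573 in the control. All 8 values lay within a narrow band, and the 95% interval of the change was −0.30 to 0.16 in the Rbbp4 knockdown and −0.16 to 0.30 in the Rbbp7 knockdown. Of the TRA2 genes, Tra2b measured 3018 and 3069 in the double knockdown, 2496 and 3083 in the Rbbp4 knockdown and 2673 and 3361 in the Rbbp7 knockdown, against 2248 and 2690 in the control. Tra2a had a negative change in each knockdown (−0.21 ± 0.13, −0.27 ± 0.13 and −0.10 ± 0.13 in the double, Rbbp4 and Rbbp7 knockdown), and Tra2b a positive one (0.31 ± 0.16, 0.17 ± 0.16 and 0.29 ± 0.16). No single knockdown value among these passed the test.

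Among the PCBP genes, Pcbp1, an intronless gene and the most abundant of the 4, measured 15268 and 12486 in the double knockdown, 12883 and 13917 in the Rbbp4 knockdown and 14894 and 16155 in the Rbbp7 knockdown, against 12054 and 14958 in the control. Its groups overlapped the control in all 3 comparisons. Pcbp2 differed from the control by 0.10 ± 0.11 in the double knockdown, by −0.03 ± 0.11 with Rbbp4 siRNA and by 0.19 ± 0.11 with Rbbp7 siRNA. Pcbp3 was low like Pcbp4, at 40.3 and 47.7 in the double knockdown, 31.8 and 48.6 in the Rbbp4 knockdown and 52.8 and 37.6 in the Rbbp7 knockdown, against 55.3 and 51.3 in the control. Its change was −0.43 ± 0.39 in the Rbbp4 knockdown (limma adjusted p = 0.908), with a 95% interval of −1.31 to 0.46, and it was −0.13 without Rbbp4 knockdown replicate 1 and −0.73 without replicate 2. In the double knockdown it differed from the control by −0.28 ± 0.39.

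Among the PTBP genes, Ptbp3, a paralog best known from blood cells, measured 1493 and 1649 in the double knockdown, 2091 and 1982 in the Rbbp4 knockdown and 1471 and 1828 in the Rbbp7 knockdown, against 2269 and 2503 in the control. All 6 knockdown libraries lay below both control libraries, and the double knockdown overlapped the Rbbp7 knockdown but lay below the Rbbp4 knockdown. Group means were 65.8% of the control in the double knockdown, 85.3% with Rbbp4 siRNA and 69.1% with Rbbp7 siRNA. The log2 change was −0.60 ± 0.14 in the double knockdown, −0.23 ± 0.14 with Rbbp4 siRNA (limma adjusted p = 0.884) and −0.54 ± 0.14 with Rbbp7 siRNA (limma adjusted p = 0.252, the smallest of the 39 there). The Rbbp7 knockdown lay below the Rbbp4 knockdown by 0.31 ± 0.14 on the log2 scale (change −0.31, limma adjusted p = 0.528), with a change of −0.16 without Rbbp7 knockdown replicate 1 and −0.47 without replicate 2. Ptbp1, the general repressor of the family, measured 9005 and 7034 in the double knockdown, 7180 and 8133 in the Rbbp4 knockdown and 8984 and 7648 in the Rbbp7 knockdown, against 7501 and 6797 in the control. Ptbp2, the neural paralog, was at 33.8 and 0 in the double knockdown, 74.6 and 40.1 in the Rbbp4 knockdown and 34.0 and 35.5 in the Rbbp7 knockdown, against 42.0 and 28.1 in the control. Its fitted change of −2.58 ± 1.30 in the double knockdown rested on the library listed at 0, and without that library it was −0.02.

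**Figure D3:**
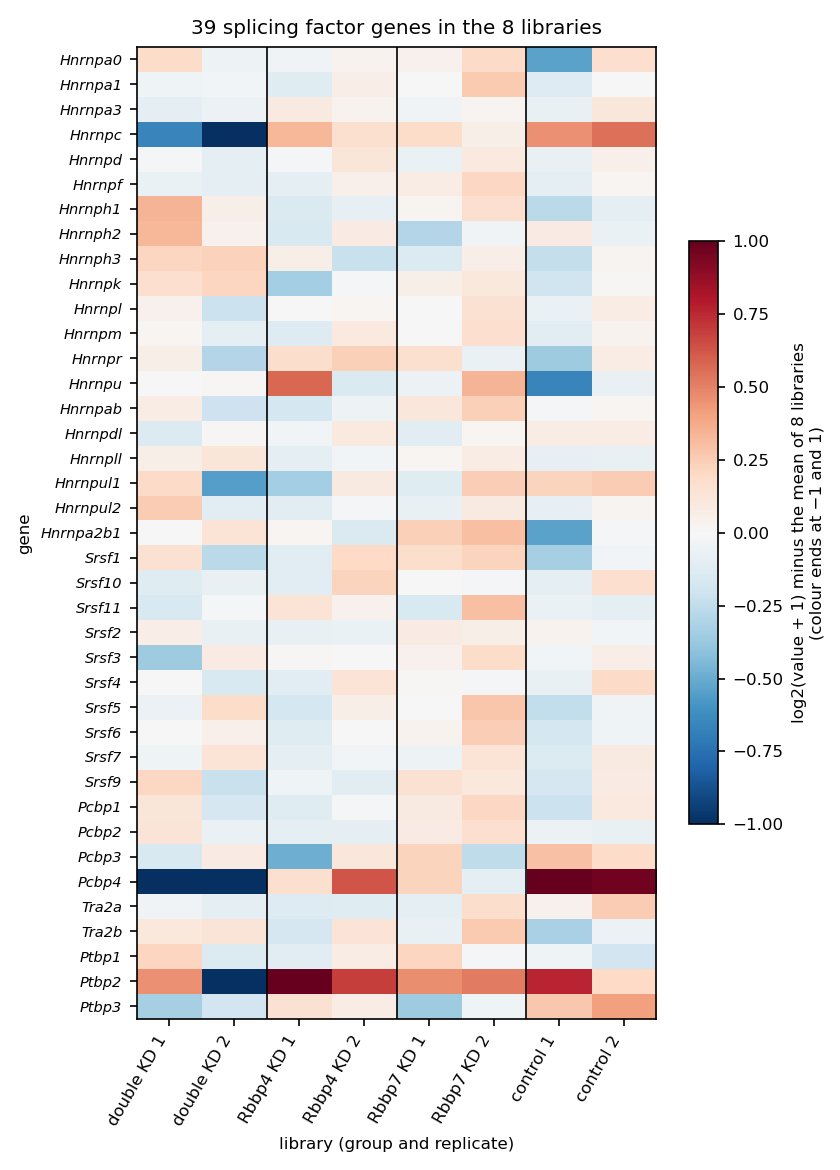
Log2(value + 1) of the 39 genes in each library minus the gene's mean over the 8 libraries, with colours ending at −1 and 1. Hnrnpc and Pcbp4 are blue in both double knockdown libraries and red in both control libraries, and control replicate 1 is the lowest library for 14 of the 39 genes.

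Over the families together, the median log2 change of the 39 was 0.02 in the double knockdown, 0.01 with Rbbp4 siRNA and 0.12 with Rbbp7 siRNA, against −0.00056, 0.0049 and 0.0095 over all tested genes. With Rbbp7 siRNA 28 of 39 changes were positive, against 51.4% of all tested genes, and 14 genes lay above the control without overlap (19.9% of all genes) and 4 below it (19.7%). In the Rbbp4 knockdown 2 lay above the control without overlap (18.0% of all genes) and 9 below it (17.4%). In the double knockdown the counts were 8 above (21.9%) and 7 below (22.2%). Against the Rbbp4 knockdown, the double knockdown lay above without overlap in 7 genes (20.9%) and below in 7 (21.5%), and against the Rbbp7 knockdown above in 3 (23.1%) and below in 10 (23.2%). The Rbbp7 knockdown lay above the Rbbp4 knockdown without overlap in 14 genes (22.7%) and below it in 4 (22.9%), with a median difference of 0.11. Single libraries moved with these counts. Rbbp7 knockdown replicate 2 was the highest library for 15 of the 39 genes (11% of all tested genes), and control replicate 1 the lowest for 14 (17.3% of all tested genes). The median change in the Rbbp7 knockdown against the control was 0.04 without that knockdown library and 0.05 without that control library. The difference of the single knockdowns was 0.02 without Rbbp7 knockdown replicate 2.

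Levels between genes were compared per kb of exon, as abundance divided by the length of the gene's merged exons. Merged exons join all annotated transcripts of a gene, so this length can exceed that of any 1 mRNA and lower the level. Hnrnpr, for example, was divided by 22199 bases. The median of the 39 was 518 per kb, against 61.9 over all tested genes, and 35 of 39 lay above that median. The highest was Pcbp1 at 7692 per kb (6587 to 8828 over the 8 libraries), followed by Hnrnpa1 at 4202, Hnrnpab at 4121, Hnrnpf at 3453, Srsf2 at 2268 and Ptbp1 at 1642. Hnrnpc stood at 148 per kb, the 33rd of 39. The lowest were Pcbp3 at 15.6, Pcbp4 at 13.0 and Ptbp2 at 3.92. Ranges over the 8 libraries were separate between Pcbp1 and Hnrnpa1, Hnrnpf and Srsf2, Srsf2 and Ptbp1, Hnrnpdl and Tra2b, Hnrnpll and Hnrnpul1, and Hnrnpr and Pcbp3. The other 32 pairs of neighbours overlapped.

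**Figure D4:**
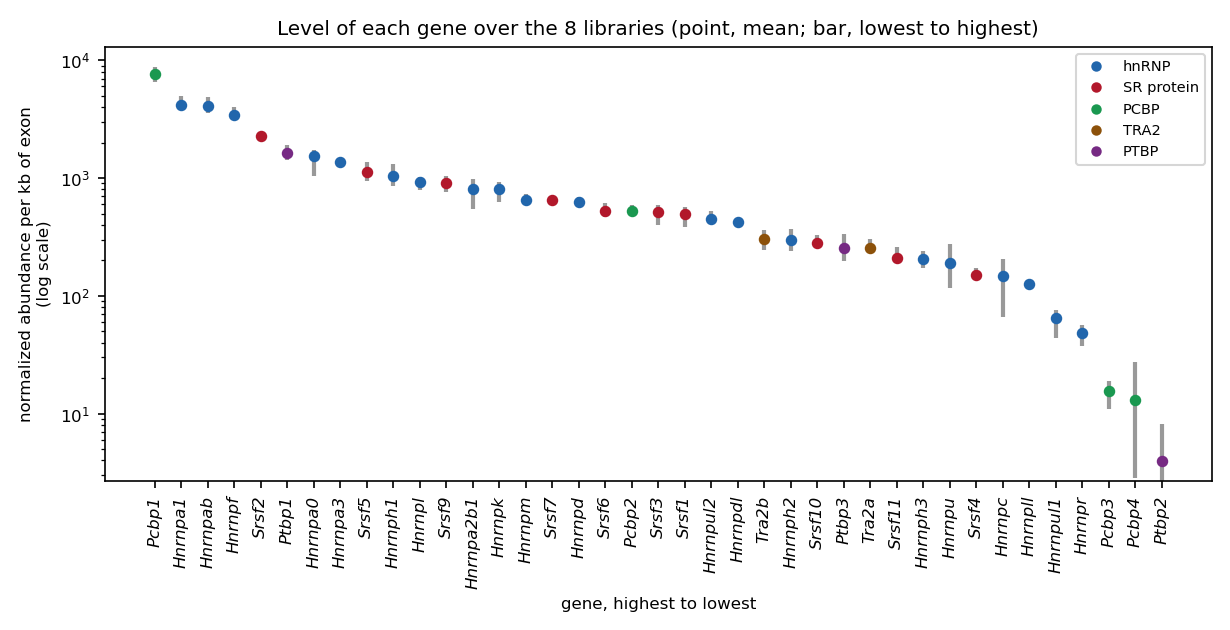
Normalized abundance per kb of merged exon for the 39 genes (log axis); points are means over the 8 libraries, bars run from the lowest to the highest library, and colours give the family. Pcbp1 is highest at 7692 per kb and Ptbp2 lowest at 3.92, with the lower end of the bar of Ptbp2, at 0, outside the axis.

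Some of these genes share exonic sequence with processed pseudogenes or with overlapping neighbours, so the counting could divide reads among them. At least 100 exonic bases at 98% identity or more were shared with another annotated gene for 23 of the 39, and for 19 of them that gene is in the table. Hnrnpa3 shares 1488 bases at 100% identity with Gm5641. Hnrnpa3 averaged 7328 over the 8 libraries and Gm5641 averaged 7110, so their values cannot be taken as separate. Pcbp2 shares 1576 bases at 100% identity with the overlapping Map3k12, on the opposite strand, which averaged 119. Hnrnpa1 shares 960 bases at 100% identity with Gm10052, which averaged 756. Hnrnpc shares 352 bases at 98.6% identity with Gm12696, which averaged 0.90. Pcbp4 had no such copy, and 51 exonic bases overlap Gpr62 on the opposite strand. The sources used here do not say whether strand was used in counting.

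The rest of the splicing machinery was read from 6 lists with 197 genes, of which 183 were tested. None was called by limma in any of the 6 comparisons. At an unadjusted p below 0.05 there were 13 genes in the double knockdown against the control (7.10%, against 17.3% of all tested genes). In the Rbbp4 knockdown there were 6 (3.28%, against 5.86%), and in the Rbbp7 knockdown 11 (6.01%, against 9.55%). The double knockdown gave 6 against the Rbbp4 knockdown (3.28%, against 9.57%) and 10 against the Rbbp7 knockdown (5.46%, against 15.0%), and the Rbbp7 knockdown gave 6 against the Rbbp4 knockdown (3.28%, against 9.30%). For the 22 tested hnRNP-related genes outside the families the smallest p belonged to Rbm3, a cold-inducible RNA-binding protein, in the Rbbp4 knockdown (−0.45 ± 0.17, limma adjusted p = 0.836), and to Tardbp, which encodes TDP-43, in the Rbbp7 knockdown (0.45 ± 0.15, limma adjusted p = 0.401). For the 26 SR-related coactivators and SR protein kinases it belonged to Luc7l2 (0.23 ± 0.13, limma adjusted p = 0.873) and to the kinase gene Srpk1 (0.34 ± 0.14, limma adjusted p = 0.495).

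Of the 30 other splicing regulators, Fubp1 had the smallest p in the Rbbp4 knockdown (0.83 ± 0.19, limma adjusted p = 0.582) and Rbm38, a p53 target in mammals, in the Rbbp7 knockdown (0.51 ± 0.18, limma adjusted p = 0.413). Of the 34 Sm, U1, U2 and SF3 genes it was Sf3b5 (−0.28 ± 0.13, limma adjusted p = 0.850) and Snrpc (−0.34 ± 0.16, limma adjusted p = 0.547). Of the 48 genes of the tri-snRNP and the catalytic spliceosome it was Cwc25 (−0.46 ± 0.18, limma adjusted p = 0.836) and Ddx23 (0.30 ± 0.13, limma adjusted p = 0.502). Of the 23 genes of the exon junction complex and nonsense-mediated decay it was Upf1, the helicase of that decay pathway, in both (0.71 ± 0.23, limma adjusted p = 0.771, with Rbbp4 siRNA, and 0.92 ± 0.23, limma adjusted p = 0.252, with Rbbp7 siRNA). These lists describe transcript levels of the machinery, and splicing itself was not measured here, since the table holds 1 value per gene.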

How the data were processed

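Per the submitters' processing notes, Trimmomatic, HISAT2, featureCounts and DESeq2 were used with the mouse build GRCm38; for their versions, settings and annotation, not given in the sources used here. What the authors deposited is a signal, gene abundance after DESeq2 normalization, not raw counts. Whole reads could not be recovered from them, so the depth in reads is unknown and no count test or counting interval was used. Libraries were grouped by their titles, and nothing in the labels ties the 2 libraries of a group to separate pools of embryos; p-values therefore reflect only library-to-library spread, which may be technical. The table held 0 columns of other samples; 116 of 19058 identifiers had no symbol.

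Values were analysed as log2(value + 1), which understates the change of low genes. All 12565 genes averaging at least 10 entered limma 3.58.1 (R 4.3.3), with 1 mean per group over all 8 libraries and a variance trend (4 residual and 5.18 prior degrees of freedom), tests two-sided, Benjamini-Hochberg adjustment over all tested genes, called below 0.05. Errors after log2 changes are standard errors, and those after means are SD. Positions and exon lengths are from GENCODE annotation of GRCm38, shared sequence from BLAST 2.17.0, and promoters from RefSeq.

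The genes and lists were chosen with earlier results of these data known. Values in every library are given for Hnrnpc, Pcbp4, any gene called, the 3 largest changes in each direction against the control, the 3 smallest p between the single knockdowns, and the highest gene of each family. Pcbp2, Tra2a, the pseudogenes and genes named only for their level were singled out after their values were seen. The 18 alternatives covered pseudocount, filter, scaling, fit and each library left out.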

Additional observations from a re-analysis of the deposited data

Results flagged for a closer look

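For 3 of the 39 genes both Rbbp4 knockdown libraries lay below both control libraries and both Rbbp7 knockdown libraries above them. The same order was seen in 1.75% of all tested genes (220), and the reverse in 0 of 39 and in 1.85% of all (232). The pattern itself was not tested. The Rbbp7 knockdown exceeded the Rbbp4 knockdown by 0.29 on the log2 scale in Hnrnpab, an A/B-type hnRNP, by 0.22 in Pcbp2 and by 0.14 in the SR gene Srsf2. The direct limma comparison gave adjusted p = 0.503 for Hnrnpab, 0.607 for Pcbp2 and 0.737 for Srsf2, and none of these passed. Pcbp2 measured 2570 and 2545 in the Rbbp4 knockdown and 2895 and 3063 in the Rbbp7 knockdown, against 2617 and 2594 in the control.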

How the results depend on the processing

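Under the 18 alternatives no change of a named gene reversed. Of 28 pairs of a named gene and a comparison, 489 of the values under an alternative kept their direction and their side of the threshold, 10 lost the call and 2 gained it. Of the 2 genes called in the double knockdown against the control, 0 were called with only the 2 groups compared and 1 (Pcbp4) without a variance trend, and leaving out single libraries gave 0 to 2: 0 without Rbbp4 knockdown replicate 2 or control replicate 1, 1 without double knockdown replicate 2 (Hnrnpc) or Rbbp4 knockdown replicate 1 (Hnrnpc), and 2 without double knockdown replicate 1 (Hnrnpc and Ptbp2 in place of Pcbp4). The log2 changes themselves ran from −1.58 to −1.16 for Hnrnpc and from −3.02 to −2.60 for Pcbp4 in those fits, and that of Ptbp2 from −5.14 to −0.02. Leaving out a library gave 0 to 1 calls in the double knockdown against the Rbbp4 knockdown and 0 to 1 against the Rbbp7 knockdown, in both cases 1 (Ptbp2) without double knockdown replicate 1; a minimum mean of 50 gave 1 (Hnrnpc) against the Rbbp7 knockdown and left Ptbp2 and Pcbp3 untested. Over all tested genes the calls in the double knockdown against the control also changed, to 2 with only the 2 groups compared, 10 without a variance trend and 18 to 94 over the libraries left out, against 144 in the reported fit. The cause was not tested. The double knockdown against the control chose Hnrnpc and Pcbp4, so nothing is read from how often they were called.

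The median change of the 39 genes moved, over the libraries left out, between −0.084 (without control replicate 1) and 0.0854 in the double knockdown against the control, with −0.0604 without double knockdown replicate 1. It ran from −0.0722 (without double knockdown replicate 1) to 0.0719 against the Rbbp4 knockdown, and from 0.0215 (without Rbbp7 knockdown replicate 2) to 0.175 between the single knockdowns, beside a spread of 0.084 (SD) between replicates. Over all tested genes, same-numbered libraries did not deviate together (correlations −0.022 to 0.051), which does not settle whether they were paired. For the 39 genes, the median deviation in replicates 1 and 2 was −0.090 and 0.042 in the Rbbp4 knockdown. It was 0.017 and 0.149 in the Rbbp7 knockdown, −0.080 and 0.036 in the control, and 0.018 and −0.074 in the double knockdown. With the replicate number as a block, 2 of the 39 genes were called in the double knockdown against the control. Of all tested genes 113 were called there, and in the other comparisons 0 of the 39 were called. The double knockdown against the control chose Hnrnpc and Pcbp4, so nothing is read from the count of 2.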
